A study of Homo sapiens with 12 samples.

Results

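GNE-140, a small-molecule inhibitor of lactate dehydrogenase (LDH), was set against untreated controls in MDA-MB-231 cells, a human triple-negative breast cancer (TNBC) cell line grown from a pleural effusion. The comparison used 3 arrays of cells given GNE-140 at 50 µM for 36 h and 4 arrays of untreated cells, which are 7 of the 12 whole-transcript arrays of the series. All 53617 features of the array entered the comparison. The other 5 arrays hold the same cells given GM-4-53 or paclitaxel, and they served here only to estimate the spread between arrays. Per the labels, the dose of GNE-140 was chosen by how far it lowered lactic acid output, the compound was dissolved in DMSO, and the controls received nothing, so an effect of the solvent cannot be told apart from that of the compound. Whether replicates came from separate cultures is not stated, and the p-values below rest on differences among arrays alone. The cell line field reads MDA-MB-231 for every array, but a free-text label of control replicate 4 and of each GNE-140 array gives the line's name with another number.

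LDH converts pyruvate and NADH, the end products of glycolysis, into lactate and NAD+, and so lets a cell run glycolysis quickly without sending all of its pyruvate to mitochondria. LDHA and LDHB encode the subunits of the enzyme in most tissues, and monocarboxylate transporters carry lactate out of the cell with the chaperones BSG and EMB. When glucose-6-phosphate builds up, the transcription factor MondoA (MLXIP) with its partner MLX switches on TXNIP and ARRDC4, which encode alpha-arrestins that slow glucose uptake. Breast cancer cells of this basal type are known for high glucose use and high lactate output.

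The 4 controls were not alike, and control replicate 4 stood apart. Across all features it correlated with the GNE-140 arrays at 0.977 to 0.979 and with controls 1 to 3 at 0.945 to 0.96, while controls 1 to 3 correlated with each other at 0.966 to 0.975. The GNE-140 arrays correlated with each other at 0.988 to 0.99 and with controls 1 to 3 at 0.954 to 0.967. The median log2 signal was 2.78 to 2.82 in the GNE-140 arrays, against 2.82 in control replicate 4 and 2.64 to 2.68 in controls 1 to 3. The labels and headers used here give no batch. Changes are therefore given against all 4 controls, and for a part of the genes also against control replicate 4 and against controls 1 to 3. A gene called against all 4 controls did not pass against control replicate 4 unless a pass or a held change is stated. A change is called held where it passed the test against control replicate 4 and against controls 1 to 3, in the same direction. Both of those contrasts share the 3 GNE-140 arrays, and the fit takes the single control to be as variable as the arrays of the other groups. Genes of the line's basal mesenchymal identity were measured in both groups, with VIM at 7.41 ± 0.07 in GNE-140 arrays and 7.88 ± 0.30 in controls and CD44 at 7.69 ± 0.05 and 7.69 ± 0.37 (log2 signal, SD, n = 3 and n = 4). Of 14 such genes 2 fell, SNAI2 and LGALS1, 11 were lower against all controls and 13 against controls 1 to 3, with a median difference of −0.27, and the falls numbered 5 without control replicate 4 and 0 to 1 without any one GNE-140 array. The estrogen and progesterone receptor genes ESR1 and PGR, which TNBC lacks, stayed at 1.55 to 3.02 in all 7 arrays, at or near the median of all features. They belong to a list of 15 measured luminal epithelial markers, of which 1 fell, or 2 without control replicate 4, and none rose. Of these markers 7 were higher and 8 lower against all controls, with a median difference of −0.11. Against control replicate 4, 12 were lower, with a median of −0.34. No marker of keratinocytes, blood cells, fibroblasts or hepatocytes passed the test (0 of 9, 0 of 10, 0 of 7 and 0 of 10 genes measured).

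Against all 4 controls, 74 features were higher by over 2-fold under GNE-140 and 170 were lower, at an adjusted p under 0.05 (limma, Benjamini-Hochberg over all features), which is 0.138% and 0.317% of all features. These hold 23 genes that rose and 73 that fell. As RNA was taken from whole cultures, a change in every cell and a change in some of the cells cannot be told apart. Centring each array on its median, which lowers every difference by 0.11 on the log2 scale, turned the split from 30.3% higher and 69.7% lower into 19.1% higher and 80.9% lower. Which controls were used set the counts. Without control replicate 4 there were 534 higher and 689 lower features, and against control replicate 4 alone there were 71 and 53. Without GNE-140 replicate 1, 2 or 3 the counts were 37, 36 and 35 higher and 88, 79 and 91 lower.

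Held changes of over 2-fold numbered 18 higher features (0.0336% of all) and 40 lower (0.0746%), and all 58 were also among those found against the 4 controls together. None held when only the 7 arrays of this comparison were fitted (adjusted p of the 23 named genes against control replicate 4 from 0.085 to 0.167) or when arrays were weighted (0.641 and above), although all 23 kept their direction and stayed beyond 2-fold in both fits. The 6 genes that rose and held, in order of the smaller difference, were MMP1, ARHGAP5-AS1, ARRDC4, DLGAP1-AS1, TFPI2 and ARRDC3. The 17 that fell and held were DKK1, PSAT1, SLC7A5, RNU5A-8P, PLK2, H2AC21, CCN1, TGFB2, THBS1, PRAG1, PRICKLE1, TNS4, RNU5F-1, MYC, CCN2, DLC1 and YARS1. Another 5 higher features carry the symbols of both HSPA1A and HSPA1B, and 7 higher and 23 lower features have no gene name in the platform annotation. Without a fold limit 19 genes rose and 21 fell against both sets of controls (0.0849% and 0.0938% of 22392 genes). All 23 genes kept their direction and stayed beyond 2-fold in both contrasts without GNE-140 replicate 1, 2 or 3, but only 3, 2 and 3 of them still passed the test, with adjusted p against control replicate 4 of up to 0.13, 0.151 and 0.134. Without control replicate 1, 2 or 3, 16, 21 and 21 of the 23 were kept. MMP1 and PLK2 were the only genes that passed in each of these 6 cases. Of all 90 genes described here that passed against the 4 controls together, 37, 38 and 35 still passed without GNE-140 replicate 1, 2 or 3 (adjusted p up to 0.225), 61, 65 and 70 without control replicate 1, 2 or 3 (up to 0.122), and all 90 without control replicate 4, with the direction kept in every case.

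**Figure D1:**
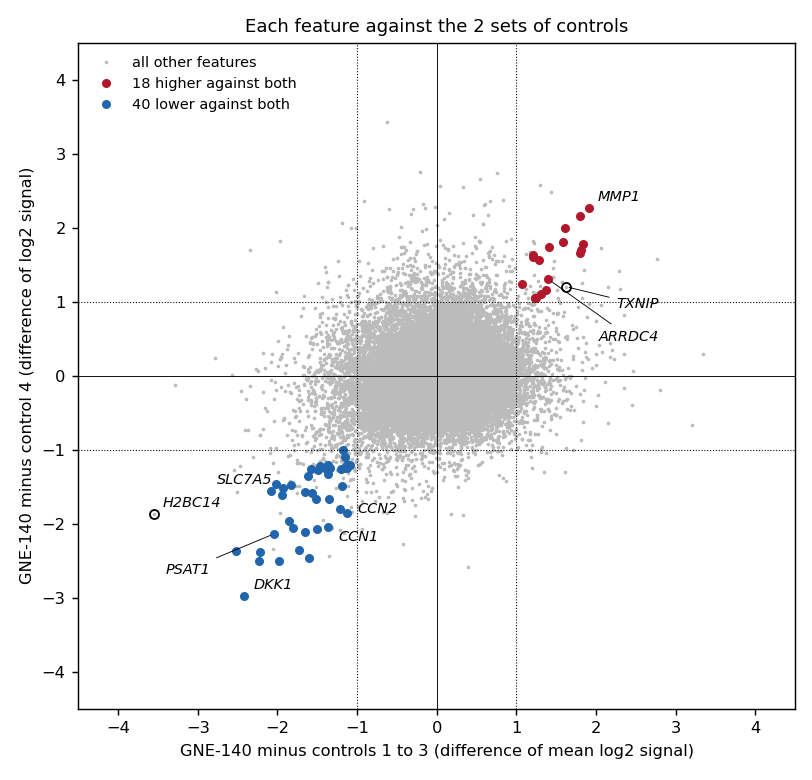
Every feature by its difference in log2 signal between GNE-140 and controls 1 to 3 (horizontal axis) and between GNE-140 and control replicate 4 (vertical axis), with dotted lines at 2-fold. Red and blue points are the 18 higher and 40 lower features that held against both, and open circles mark TXNIP and H2BC14, which lie beyond 2-fold on both axes but did not pass the test against control replicate 4.

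The genes of LDH and lactate handling did not pass the test, with 0 of 14 measured members called at an adjusted p under 0.05, against 1.65% of all genes. LDHA, which encodes the muscle-type subunit, read 7.24, 7.20 and 7.21 in the GNE-140 arrays, against 7.30, 7.25, 6.92 and 7.00 in the controls. LDHB, which encodes the heart-type subunit, read 5.25, 5.25 and 5.19, against 5.69, 5.68, 5.51 and 5.29. The LDHA values of the groups overlapped, whereas every GNE-140 array was below every control for LDHB, as was the case for 8.42% of all genes. The log2 difference was 0.10 ± 0.12 (SE, adjusted p = 0.705) for LDHA and −0.31 ± 0.12 (adjusted p = 0.231) for LDHB (limma). Against control replicate 4 alone LDHB differed by −0.06 ± 0.15, and without that control by −0.39 ± 0.10 (adjusted p = 0.0379). BSG, the lactate transporter chaperone, differed by −0.36 ± 0.12 (adjusted p = 0.167) and again lay below the controls in all 3 arrays.

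The other members of this list were flat or uneven among the controls. SLC16A7, which encodes the transporter MCT2, read 3.26, 3.53 and 3.56 under GNE-140, against 4.62, 4.64, 3.60 and 3.25 in controls, so that controls 1 and 2 were high and controls 3 and 4 lay with the treated arrays (adjusted p = 0.344). EMB, the second chaperone, had the same kind of spread, with 4.21, 4.30 and 4.69 under GNE-140, against 4.77, 5.18, 4.94 and 4.32 in controls (adjusted p = 0.319). MPC1 and MPC2, the mitochondrial pyruvate carrier, differed by 0.20 ± 0.16 and 0.10 ± 0.13. GLO1 and HAGH, the glyoxalases that make D-lactate, differed by −0.05 ± 0.13 and 0.07 ± 0.12. LDHC, LDHD, LDHAL6A, LDHAL6B and SLC16A8 had mean signals between 1.26 and 3.29 in both groups, near the array medians, and adjusted p from 0.473 to 0.969. The transporters MCT1 and MCT4 (SLC16A1 and SLC16A3) have no feature of their own name in the annotation used and were not analysed here.

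Some targets of MondoA and some alpha-arrestins rose. Of 11 measured genes of the MondoA list 5 rose and none fell, against 0.46% of all genes rising, and the median difference of the list was 0.30, against 0.03 over all genes. Of 6 alpha-arrestins, a list drawn up after the values were seen, 3 rose, and ARRDC4 and ARRDC3 held against both sets of controls. Both of these genes are also in the MondoA list, so the counts of the lists are not independent. The MondoA count was 2 to 3 when 1 GNE-140 array was left out, 3 without control replicate 1 or 2, and 3 after median centring, where ARRDC3 no longer held.

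TXNIP, which binds thioredoxin and draws glucose transporters off the cell surface, read 9.90, 9.98 and 9.87 in the GNE-140 arrays, against 7.92, 8.02, 8.94 and 8.71 in the controls. The groups did not overlap (8.2% of all genes lie wholly above the controls), and controls 3 and 4 were higher than controls 1 and 2. TXNIP rose by 1.52 ± 0.22 on the log2 scale, or 2.86-fold (adjusted p = 0.0068), with a difference of 1.62 ± 0.22 against controls 1 to 3 (adjusted p = 0.00332) and of 1.20 ± 0.31 against control replicate 4 (adjusted p = 0.166), so that its rise did not hold by this rule. Without GNE-140 replicate 2 its adjusted p against all controls was 0.0508.

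ARRDC4, its close relative and the other classical MondoA target, read 5.74, 5.74 and 6.04 under GNE-140, against 4.33, 4.44, 4.53 and 4.53 in controls. Here the 4 controls were close together. The rise was 1.38 ± 0.13 on the log2 scale (adjusted p = 0.000487), with 1.40 ± 0.13 against controls 1 to 3 (adjusted p = 0.000672) and 1.30 ± 0.19 against control replicate 4 (adjusted p = 0.0299).

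ARRDC3, an alpha-arrestin that takes part in receptor and glucose transporter turnover, read 8.20, 8.18 and 8.24 under GNE-140, against 7.20, 7.20, 7.02 and 6.97 in controls, a rise of 1.11 ± 0.14 (adjusted p = 0.003). It also passed against control replicate 4 (1.24 ± 0.20, adjusted p = 0.0423) and against controls 1 to 3 (1.07 ± 0.14, adjusted p = 0.00312). HBP1, a transcriptional repressor, rose by 0.77 ± 0.14 (adjusted p = 0.0245), and KLF10, a TGF-beta-inducible zinc finger factor, by 0.61 ± 0.12 (adjusted p = 0.0278), and neither passed against control replicate 4 (adjusted p = 0.078 and 0.183). ARRDC2 and ARRDC1 did not pass, with 0.30 ± 0.16 and 0.16 ± 0.13. The factor MLXIP itself differed by 0.06 ± 0.11 and MLX by −0.50 ± 0.16 (adjusted p = 0.804 and 0.166).

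The promoters of TXNIP and ARRDC4 are shown because these genes moved together and are known targets of 1 factor. MondoA is known to bind a carbohydrate response element, which is a tandem of E-box-like motifs. The letters searched were CACGNG, then 5 bases of any kind, then CACGNG again, on both strands, in the 250 bases before each RefSeq start (GRCh38.p14). They are in 16 of 35116 such promoters (0.0456%), and 1 of these is TXNIP. Its match starts at −88 and is in capitals (chr1:145996580-145996829, minus strand):
TXNIP: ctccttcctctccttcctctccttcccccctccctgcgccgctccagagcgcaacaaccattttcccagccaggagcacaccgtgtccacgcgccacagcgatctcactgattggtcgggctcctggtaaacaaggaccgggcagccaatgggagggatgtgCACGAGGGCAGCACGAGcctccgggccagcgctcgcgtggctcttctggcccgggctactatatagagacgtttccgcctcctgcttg
The window of ARRDC4 holds no such tandem but 1 plain E-box, CACGTG, in capitals at −210, which is palindromic and is in 6.34% of the promoters (chr15:97960453-97960702, plus strand):
ARRDC4: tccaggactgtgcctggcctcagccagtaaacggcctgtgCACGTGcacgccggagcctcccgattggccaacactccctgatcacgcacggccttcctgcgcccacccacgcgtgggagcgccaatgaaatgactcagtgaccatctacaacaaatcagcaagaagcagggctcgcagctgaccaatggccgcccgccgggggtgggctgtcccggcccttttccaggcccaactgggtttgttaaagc
Neither set of letters is in the second window listed for TXNIP or in the 2 windows listed for ARRDC3. A match describes letters only.

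**Figure D2:**
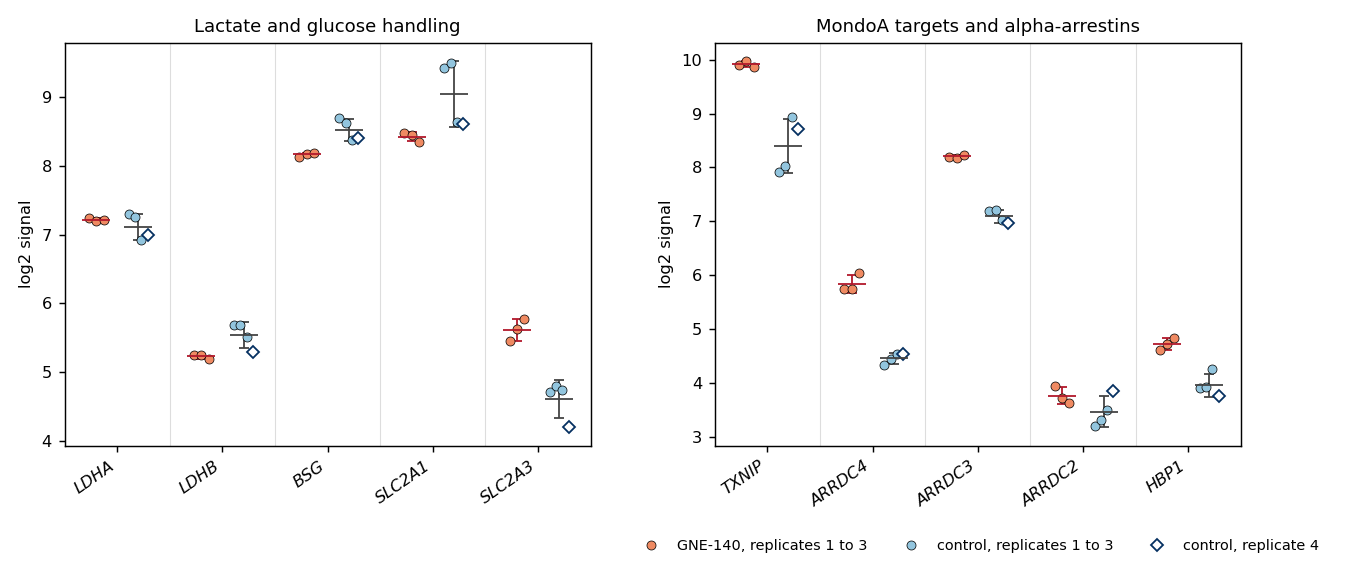
Log2 signal of 10 genes in each array, with lactate and glucose handling genes on the left and MondoA targets and alpha-arrestins on the right. For each gene the GNE-140 arrays stand left of the controls, control replicate 4 is the open diamond, and the bars are group means with the SD (n = 3 and n = 4). LDHA overlaps between the groups, and ARRDC4 and ARRDC3 do not.

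Among 22 glycolysis genes 1 passed, SLC2A3, which encodes the high-affinity glucose transporter GLUT3. It read 5.46, 5.63 and 5.77 under GNE-140, against 4.72, 4.80, 4.75 and 4.20 in controls, and rose by 1.00 ± 0.17 on the log2 scale (adjusted p = 0.017). Control replicate 4 was the lowest control. The rise passed against both sets of controls, with 1.42 ± 0.20 against control replicate 4 (adjusted p = 0.0266) and 0.87 ± 0.14, under 2-fold, against controls 1 to 3 (adjusted p = 0.00641). It was lost without any one GNE-140 array (adjusted p up to 0.0985). SLC2A1, the common glucose transporter GLUT1, read 8.47, 8.44 and 8.35, against 9.42, 9.48, 8.63 and 8.61, so that controls 1 and 2 stood well above the rest, and it did not pass (−0.62 ± 0.22, adjusted p = 0.191). HK2, the inducible hexokinase, differed by −0.41 ± 0.14 (adjusted p = 0.182). The median over the 22 genes was −0.02.

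In the list of pyruvate dehydrogenase and the TCA cycle 1 of 25 genes rose. This was PDK4, the kinase that shuts pyruvate dehydrogenase and so keeps pyruvate from mitochondria. PDK4 read 3.88, 3.67 and 3.82, against 3.06, 2.88, 3.07 and 3.06 in controls, a rise of 0.77 ± 0.12 (adjusted p = 0.0125) from a low signal, with an adjusted p of 0.144 against control replicate 4, and of up to 0.0866 without GNE-140 replicate 1 or 3. No gene of 40 in the respiratory chain passed, with a median of −0.06. PPRC1, a PGC-1-related coactivator and the 1 called gene of 18 in the mitochondrial biogenesis list, fell by 0.97 ± 0.13 (adjusted p = 0.00442).

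Of 26 hypoxia factors and targets 2 rose and 2 fell, against 0.46% and 1.19% of all genes, and 11 had every GNE-140 array above every control, against 8.2% of all genes. ADM, which encodes adrenomedullin, rose by 0.65 ± 0.10 (adjusted p = 0.0138), and EGLN1, the prolyl hydroxylase that marks HIF for destruction, by 0.64 ± 0.12 (adjusted p = 0.0315). LOX, the collagen cross-linking enzyme, fell by 0.87 ± 0.14 (adjusted p = 0.0115), and ADORA2B, an adenosine receptor, by 0.71 ± 0.12 (adjusted p = 0.0152). The list as a whole had a median of 0.23, or 0.32 against control replicate 4 and 0.22 against controls 1 to 3. After median centring none of the rises passed, and without any one GNE-140 array none of the 4 calls did. KDM3A, a hypoxia-induced histone demethylase, had an adjusted p of 0.078 against all 4 controls, yet passed against control replicate 4 (1.03 ± 0.15, adjusted p = 0.0319) and against controls 1 to 3 (0.47 ± 0.11, adjusted p = 0.0215). STC1, which encodes the hormone stanniocalcin, is not counted in this list. It rose by 0.64 ± 0.13 (adjusted p = 0.042) and passed against both sets of controls. Its call against all 4 controls was lost after median centring and without any one array other than control replicate 4 (adjusted p up to 0.18).

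The largest group of metabolic genes that fell serves the supply and use of amino acids. Of 33 measured targets of ATF4, the factor that raises amino acid synthesis and uptake when amino acids run short, 11 fell and none rose, against 1.19% of all genes falling. The median of the list was −0.43, with −0.50 against control replicate 4 and −0.29 against controls 1 to 3. Its count was 3 without any one GNE-140 array and 6 without control replicate 3. Most of the falls in this list did not pass against control replicate 4 and so did not hold. Of 13 genes of serine, glycine and one-carbon metabolism 4 fell, PSAT1, SHMT2, PSPH and MTHFD2, and 2 were left without any one GNE-140 array. Of 14 genes of glutamine and amino acid transport 4 fell, SLC7A5, SLC7A1, SLC1A5 and SLC7A11. In the serine and transport lists only PSAT1 and SLC7A5 held. The gene lists share members, such as MTHFD2 in the ATF4 and serine lists, so their counts are not independent.

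PSAT1, the aminotransferase of serine synthesis, read 5.94, 5.88 and 6.37 under GNE-140, against 7.87, 7.94, 8.52 and 8.20 in controls. Every treated array lay at least 1 log2 unit below every control. It fell by 2.07 ± 0.17, to a 4.20-fold lower signal (adjusted p = 0.000266), and held with −2.14 ± 0.26 against control replicate 4 (adjusted p = 0.0172) and −2.05 ± 0.18 against controls 1 to 3 (adjusted p = 0.000588). PSPH, the last enzyme of the same pathway, fell by 0.77 ± 0.13 (adjusted p = 0.0167). PHGDH, the first, was near background at 3.05 ± 0.25 and 2.94 ± 0.27, and did not pass (0.10 ± 0.17, adjusted p = 0.777). SHMT2, the mitochondrial enzyme that passes a carbon from serine to folate, fell by 1.02 ± 0.13 (adjusted p = 0.00306), with −1.02 ± 0.19 against control replicate 4 (adjusted p = 0.0652). MTHFD2, the next mitochondrial step, fell by 0.73 ± 0.14 (adjusted p = 0.0304).

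SLC7A5, which encodes LAT1, the exchanger that brings in leucine and other large neutral amino acids, read 6.81, 6.88 and 6.71, against 8.89, 8.94, 8.38 and 8.41 in controls. Controls 1 and 2 were above controls 3 and 4, and all were far above the treated arrays. It fell by 1.86 ± 0.16, to a 3.63-fold lower signal (adjusted p = 0.000266), and held with −1.62 ± 0.22 against control replicate 4 (adjusted p = 0.0227) and −1.94 ± 0.15 against controls 1 to 3 (adjusted p = 0.000423). SLC3A2, which encodes the heavy chain that carries LAT1 to the membrane, stood at 6.81, 6.77 and 6.72, against 6.87, 6.85, 6.74 and 6.59 (0.00 ± 0.12, adjusted p = 0.987). SLC7A1, the arginine and lysine carrier, fell by 1.24 ± 0.15 (adjusted p = 0.00206), and SLC1A5, the glutamine carrier, by 1.10 ± 0.14 (adjusted p = 0.00289). Against control replicate 4 these fell short of the threshold, at −0.92 ± 0.18 (adjusted p = 0.0704) and −0.96 ± 0.20 (adjusted p = 0.0849). SLC7A11, the cystine carrier, fell by 0.56 ± 0.11 (adjusted p = 0.0329).

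Of 20 cytosolic aminoacyl-tRNA synthetases, which charge tRNA with amino acids, a list drawn up after the values were seen, 7 fell, and of 15 mitochondrial ones 1 fell, with medians of −0.31 and −0.20. The difference between the lists was not tested. The cytosolic count was 2 without any one GNE-140 array and 4 without control replicate 3. YARS1, for tyrosine, read 5.48, 5.23 and 5.34, against 6.49, 6.44, 6.58 and 6.45, with all controls close together, and fell by 1.14 ± 0.11 (adjusted p = 0.000719). It held against control replicate 4 at −1.10 ± 0.17 (adjusted p = 0.0323). GARS1, AARS1, SARS1 and MARS1, for glycine, alanine, serine and methionine, fell by 0.79, 0.81, 0.70 and 0.72, with adjusted p of 0.00534, 0.00744, 0.017 and 0.0297. WARS1, for tryptophan, fell by 0.69 ± 0.15 (adjusted p = 0.0487). EIF4EBP1, a brake on translation that is also an ATF4 target, fell by 0.75 ± 0.11 (adjusted p = 0.00936).

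Other ATF4 targets depended on the controls. ASNS, asparagine synthetase, read 4.34, 4.29 and 4.29, against 4.88, 5.08, 6.60 and 6.39 in controls, so that the controls themselves spanned more than the distance from the lower of them to the treated arrays, and the difference of −1.43 ± 0.35 did not pass (adjusted p = 0.0807). CTH, which makes cysteine, had the same pattern with 3.26, 3.03 and 3.44, against 4.17, 4.38, 5.48 and 5.19, and fell by 1.56 ± 0.29 (adjusted p = 0.0276), with an adjusted p of 0.109 against control replicate 4. Controls 3 and 4 were the high ones for both genes. ATF4 itself lay below the controls in all 3 arrays (−0.51 ± 0.15, adjusted p = 0.142). The stress genes DDIT3, TRIB3, CHAC1 and SESN2 did not pass (adjusted p from 0.124 to 0.856), and no gene of 18 in the unfolded protein response of the endoplasmic reticulum did.

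**Figure D3:**
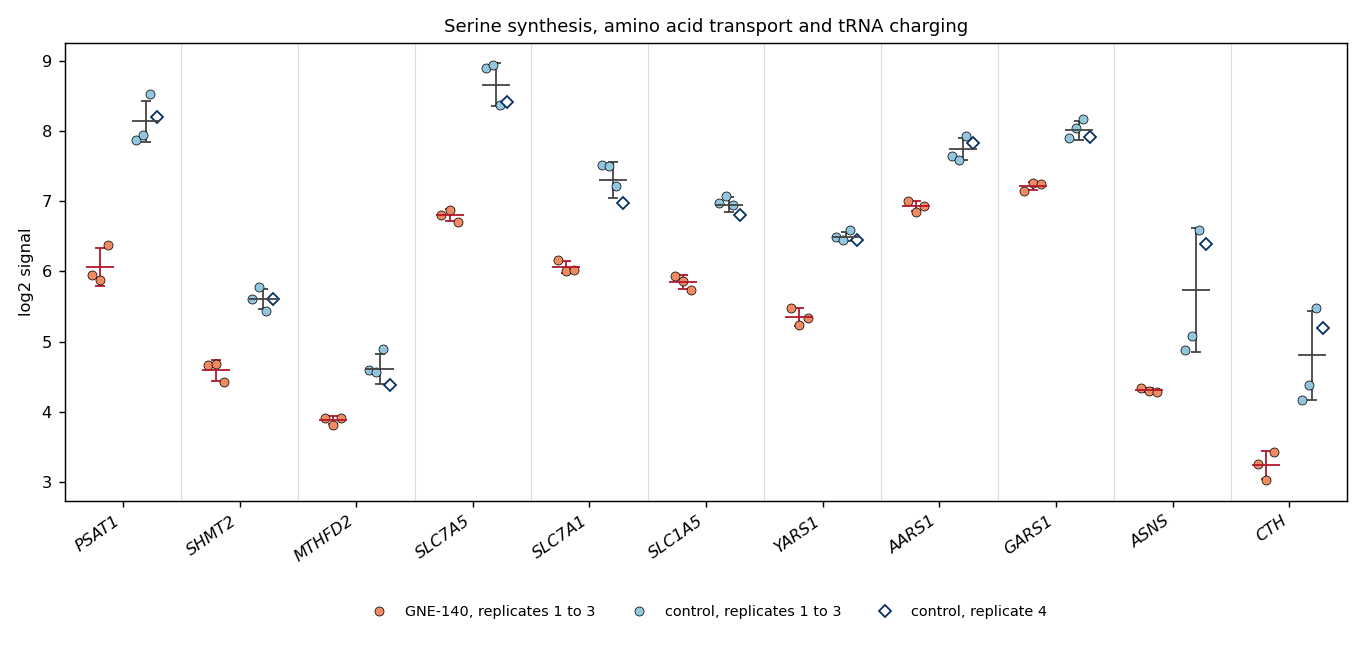
Log2 signal of 11 genes of serine synthesis, amino acid transport and tRNA charging in each array, drawn as group means with the SD (n = 3 and n = 4) over single arrays, with the open diamond for control replicate 4. The GNE-140 arrays lie below all 4 controls in every gene, and the controls of ASNS and CTH fall into a lower and a higher pair.

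YAP is a coactivator that binds DNA through TEAD factors when cells spread and adhere, and CCN1 and CCN2, which encode matrix-associated growth regulators, are its best known targets. Of 22 such targets, a list drawn up after the values were seen, 6 fell, 16 did not pass and none rose, against 1.19% of all genes falling. Of the falls 3 held, against 0.0938% of all genes. In 13 of the 22 every GNE-140 array was below every control, against 8.42% of all genes. The median of the list was −0.55, with −0.53 against control replicate 4 and −0.59 against controls 1 to 3. Its count was 12 without control replicate 4, 3 without any one GNE-140 array and 10 after median centring. Of 26 genes of SRF, YAP and the actin cytoskeleton 5 fell, with a median of −0.36.

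CCN1 read 7.38, 7.34 and 7.22 under GNE-140, against 8.42, 8.37, 9.26 and 9.35 in controls, and CCN2 read 6.50, 6.38 and 6.59, against 7.35, 7.26, 8.25 and 8.35. In both genes controls 3 and 4 were the higher pair, and the treated arrays lay below the lower pair. CCN1 fell by 1.54 ± 0.23 (adjusted p = 0.00888) and CCN2 by 1.31 ± 0.24 (adjusted p = 0.0265). Against control replicate 4 the differences were −2.04 ± 0.29 (adjusted p = 0.0299) and −1.86 ± 0.31 (adjusted p = 0.0444), and against controls 1 to 3 they were −1.37 ± 0.21 (adjusted p = 0.00486) and −1.13 ± 0.22 (adjusted p = 0.0122). ANKRD1, another YAP target, showed the same split of the controls and did not pass (8.31, 8.34 and 8.32, against 9.01, 8.98, 10.2 and 10.1, adjusted p = 0.0578). AJUBA, a scaffold protein of the Hippo pathway, fell by 1.12 ± 0.14 (adjusted p = 0.00314) with no such split, at 4.91, 5.33 and 4.83, against 5.94, 6.16, 6.32 and 6.15. Unlike CCN1 and CCN2, AJUBA did not pass against control replicate 4 and so did not hold. MYL9 and CNN2, a myosin light chain and a calponin, fell by 0.82 ± 0.13 and 0.81 ± 0.15 (adjusted p = 0.0147 and 0.0235).

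The promoters of CCN2 and DKK1 are shown as examples from the genes that fell and held. Of those genes only CCN1, CCN2, DKK1, TGFB2 and THBS1 were looked up, chosen by hand. Their matches therefore cannot be set against the share over all windows as a result about the held falls. CCN2 is itself counted as a YAP target, and that list was drawn up after the values were seen, so the matches do not test it. The TEAD core GGAATG, read on both strands, is in 4175 of 35116 windows of 250 bases (11.9%). CCN2 has 3 matches, in capitals, at −169, −104 and −95 (chr6:131951373-131951622, minus strand):
CCN2: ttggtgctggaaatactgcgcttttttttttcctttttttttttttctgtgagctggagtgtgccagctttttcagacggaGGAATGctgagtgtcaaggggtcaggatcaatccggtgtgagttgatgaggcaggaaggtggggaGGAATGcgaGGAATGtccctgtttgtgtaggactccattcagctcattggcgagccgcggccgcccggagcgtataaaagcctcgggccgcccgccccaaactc
DKK1 has 1 match, in capitals, at −50 (chr10:52314031-52314280, plus strand):
DKK1: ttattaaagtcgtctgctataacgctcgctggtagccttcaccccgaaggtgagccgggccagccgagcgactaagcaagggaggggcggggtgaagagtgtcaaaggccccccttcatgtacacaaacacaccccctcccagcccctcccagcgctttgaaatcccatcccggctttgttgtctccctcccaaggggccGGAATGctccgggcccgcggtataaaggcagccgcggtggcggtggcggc
TGFB2 and THBS1 also have 1 match each, at −185 and −46, and CCN1 has no entry in the promoter table. These matches describe letters and are not evidence of binding.

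DKK1, a secreted inhibitor of Wnt signaling, had the largest held fall. It read 5.30, 4.89 and 4.93 under GNE-140, against 7.13, 7.12, 8.13 and 8.02 in controls, and fell by 2.56 ± 0.24, to a 5.89-fold lower signal (adjusted p = 0.000567). It held with −2.98 ± 0.34 against control replicate 4 (adjusted p = 0.0114) and −2.42 ± 0.24 against controls 1 to 3 (adjusted p = 0.000882). TGFB2, a ligand of the TGF-beta family, read 7.11, 7.12 and 7.17, against 8.23, 8.26, 8.96 and 8.80, and fell by 1.43 ± 0.18 (adjusted p = 0.00289), also held. As with CCN1 and CCN2, controls 3 and 4 were the higher pair for both genes. THBS1, which encodes the matrix protein thrombospondin 1, read 7.24, 7.47 and 7.39, against 8.99, 9.10, 8.75 and 8.63, and there controls 1 and 2 were the higher pair. Its signal fell 2.84-fold (adjusted p = 0.000365), with differences of −1.26 ± 0.17 against control replicate 4 (adjusted p = 0.0258) and −1.58 ± 0.12 against controls 1 to 3 (adjusted p = 0.000423).

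Of 22 TGF-beta and BMP targets and ligands 5 fell, against 1.19% of all genes, with a median of −0.29 and a count of 2 to 3 without any one GNE-140 array. Besides TGFB2 and CCN2 they were ID3, BMP4 and TGFBI. ID3, an inhibitor of differentiation factors that BMP signals induce, read 3.52, 3.94 and 3.57, against 5.21, 4.90, 5.54 and 5.09, and fell by 1.51 ± 0.22 (adjusted p = 0.00859), with an adjusted p of 0.145 against control replicate 4 and of up to 0.0626 without GNE-140 replicate 1 or 3. Its relative ID1 did not pass (−0.40 ± 0.13, adjusted p = 0.171). BMP4, a ligand, fell by 0.96 ± 0.12 (adjusted p = 0.003), and of the BMP antagonists FST fell by 1.19 ± 0.16 (adjusted p = 0.00462) and CRIM1 fell by 1.09 ± 0.13 (adjusted p = 0.0028). Of 16 antagonists of Wnt and BMP, a list drawn up after the values were seen, 4 fell, DKK1, CRIM1, FST and FSTL1, none rose, and 9 were higher, with a median of 0.10. EDN1, which encodes the peptide endothelin 1, read 3.44, 3.64 and 3.66 under GNE-140, against 5.83, 5.80, 5.29 and 4.75 in controls, fell by 1.84 ± 0.23 (adjusted p = 0.00287) and missed the threshold against control replicate 4, its lowest control (adjusted p = 0.068). SNAI2, a mesenchymal transcription factor, fell by 1.45 ± 0.22 (adjusted p = 0.00938) with a like order of controls, and its adjusted p against control replicate 4 was 0.206.

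MMP1, the collagenase that opens fibrillar collagen, was the largest held rise. It read 8.12, 8.14 and 8.23 under GNE-140, against 6.06, 6.10, 6.60 and 5.90 in controls, and rose 4.00-fold (adjusted p = 0.000254). The groups were more than 1.5 log2 units apart. The rise was 2.26 ± 0.22 against control replicate 4 (adjusted p = 0.00618) and 1.91 ± 0.15 against controls 1 to 3 (adjusted p = 0.000423). TFPI2, a secreted protease inhibitor of the matrix, read 7.42, 7.48 and 7.32, against 6.17, 6.37, 6.05 and 5.81, and rose by 1.31 ± 0.17 (adjusted p = 0.00314), with 1.60 ± 0.22 against control replicate 4 (adjusted p = 0.0267). Of 35 genes of matrix and proteases 1 rose, MMP1, while THBS1, TIMP3 and COL6A3 fell. TIMP3, an inhibitor of matrix proteases, fell by 0.86 ± 0.15 (adjusted p = 0.0191), and COL6A3, a chain of collagen VI, by 0.72 ± 0.13 (adjusted p = 0.0218). Without control replicate 4 the falls numbered 10 and without control replicate 1, or any one GNE-140 array, 1.

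**Figure D4:**
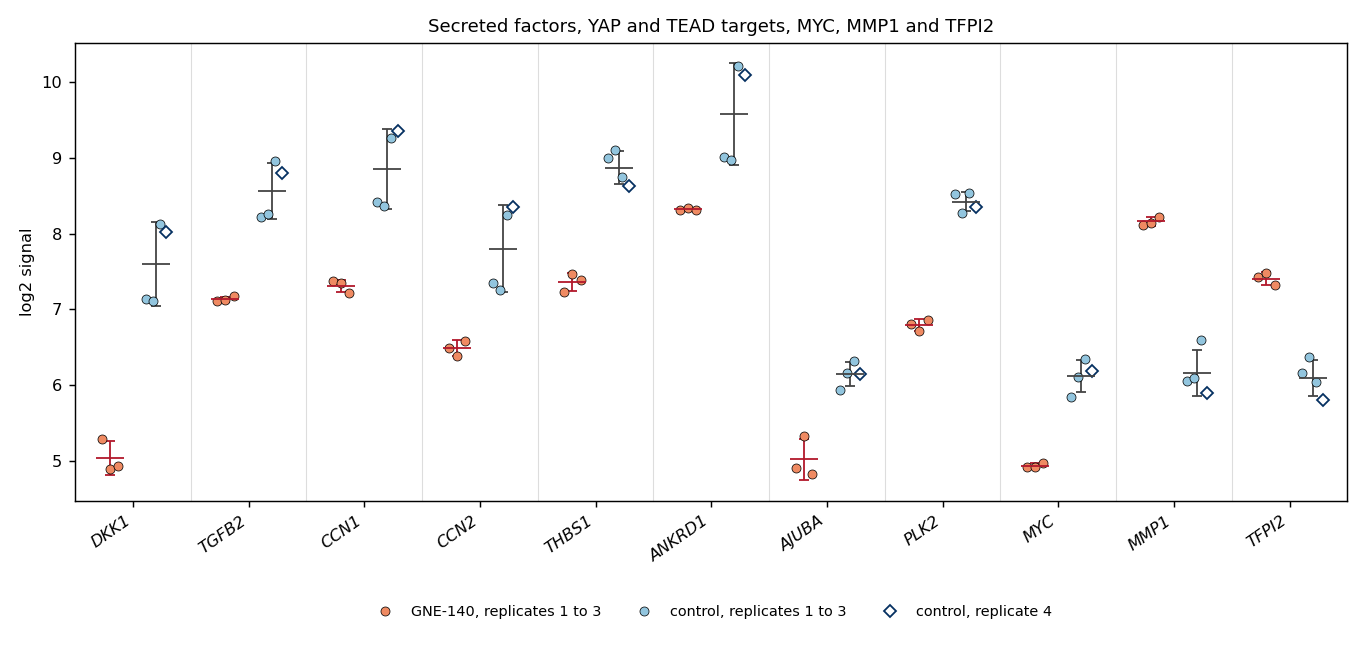
Log2 signal of 11 genes in each array, drawn as group means with the SD (n = 3 and n = 4) over single arrays, with the open diamond for control replicate 4. The 9 genes on the left are lower and MMP1 and TFPI2 are higher in every GNE-140 array than in every control, and controls 3 and 4 form a higher pair for DKK1, TGFB2, CCN1, CCN2 and ANKRD1.

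MYC, the growth-promoting transcription factor, read 4.92, 4.92 and 4.98 under GNE-140, against 5.85, 6.11, 6.35 and 6.18 in controls. It fell by 1.18 ± 0.13, to a 2.27-fold lower signal (adjusted p = 0.00118), and held with −1.25 ± 0.19 against control replicate 4 (adjusted p = 0.0323). Of 22 genes of MYC and ribosome biogenesis 2 fell, MYC and NOP16 (−0.50 ± 0.11, adjusted p = 0.0451), with a median of −0.31, or −0.07 against control replicate 4. Without control replicate 4 that count was 8, and without any other 1 of the 7 arrays it was 1. PLK2, a polo-like kinase that acts early in the cell cycle and in stress, read 6.80, 6.71 and 6.86, against 8.53, 8.27, 8.54 and 8.36, with all controls close together. It fell by 1.63 ± 0.11, to a 3.10-fold lower signal (adjusted p = 0.00012), and had the smallest adjusted p of the 23 held genes against controls 1 to 3 (0.00031).

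Genes of ERK signaling fell in part. Of 23 ERK targets and feedback genes 4 fell, MYC, SPRY1, FOSL1 and DUSP4, against 1.19% of all genes, with a median of −0.35, or −0.18 against control replicate 4. SPRY1, a feedback inhibitor, fell by 0.82 ± 0.12 (adjusted p = 0.00984), FOSL1, an AP-1 subunit, by 0.65 ± 0.12 (adjusted p = 0.0223), and DUSP4, a phosphatase that switches ERK off, by 0.70 ± 0.13 (adjusted p = 0.0266). DUSP6, its cytosolic relative, did not pass (−0.60 ± 0.15, adjusted p = 0.0934). The count was 8 without control replicate 4, 2 without control replicate 1 or 2, and 1 to 2 without any one GNE-140 array. NR4A2, an immediate early nuclear receptor, fell by 1.25 ± 0.15 (adjusted p = 0.00287), and IRS1, an adaptor of the insulin receptor, by 0.93 ± 0.14 (adjusted p = 0.00973).

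Of the other held falls, PRAG1, which encodes a pseudokinase, read 4.53, 4.39 and 4.51, against 5.84, 5.87, 5.72 and 5.72, and fell by 1.31 ± 0.11 (adjusted p = 0.000266). PRICKLE1, of planar cell polarity, fell by 1.36 ± 0.13 (adjusted p = 0.000523), TNS4, a tensin of focal adhesions, by 1.33 ± 0.13 (adjusted p = 0.000719), and DLC1, a tumor suppressor of focal adhesions, by 1.14 ± 0.13 (adjusted p = 0.00175). These genes differed little among the controls, with control SDs of 0.08 to 0.18. DLC1 no longer held when any single array other than control replicate 4 was left out (adjusted p against control replicate 4 of up to 0.127, and under 2-fold without control replicate 3), and CCN2 was kept only without control replicate 2. Under 2-fold, VIPR1, a receptor of vasoactive intestinal peptide, and IGFBP4, a binder of insulin-like growth factors, fell by 0.89 ± 0.12 and 0.75 ± 0.12 and passed against both sets of controls.

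The held rises outside metabolism and matrix included noncoding RNAs. ARHGAP5-AS1, transcribed antisense to ARHGAP5, read 6.80, 6.61 and 6.68, against 5.10, 5.51, 5.24 and 4.96, and rose by 1.49 ± 0.17 (adjusted p = 0.00153). DLGAP1-AS1 read 5.44, 5.52 and 5.54, against 4.16, 4.36, 4.13 and 3.94, and rose by 1.36 ± 0.17 (adjusted p = 0.00289). For both, control replicate 4 was the lowest control. RNU5A-8P and RNU5F-1, copies of the spliceosomal U5 RNA, fell by 1.57 ± 0.14 and 1.26 ± 0.15, and as near-identical copies of this RNA exist, which copy was measured is uncertain.

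The 5 features named for both HSPA1A and HSPA1B, which encode the inducible heat shock protein HSP70 from near-identical genes, rose by 1.19 to 1.32 on the log2 scale, with adjusted p of 0.0217 to 0.0434 against control replicate 4. They are likely to share probes or targets and are not independent. The brightest of them read 9.36, 9.32 and 9.30 under GNE-140, against 8.04, 8.01, 8.23 and 8.28 in controls. Of 15 other heat shock genes with a name of their own 2 rose, HSPA1L, a neighbor in the same family, by 0.85 ± 0.14 (adjusted p = 0.013), and DNAJB1, an HSP40 cochaperone, by 0.50 ± 0.11 (adjusted p = 0.0444), against 0.46% of all genes, and 8 of 15 had every GNE-140 array above every control, against 8.2%. The count of rises was 5 without control replicate 4, 4 after quantile normalization, 1 after median centring or without control replicate 1 or 2, and 0 without any one GNE-140 array.

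A smaller set of regulators rose. BHLHE40 and BHLHE41, circadian repressors, rose by 1.00 ± 0.16 (adjusted p = 0.0125) and 1.20 ± 0.15 (adjusted p = 0.00352), and BHLHE40 also passed against control replicate 4 (1.29 ± 0.21, adjusted p = 0.041). NFKBIA and TNFAIP3, which restrain NF-kB and are also its targets, rose by 0.94 ± 0.17 and 0.64 ± 0.13 (adjusted p = 0.0235 and 0.0422), while 27 of the 29 genes of their list did not pass, and neither did these after median centring, without control replicate 3 or without any one GNE-140 array. GCLC, the rate-limiting enzyme of glutathione synthesis, rose by 0.66 ± 0.13 (adjusted p = 0.0279), and GPX1, a glutathione peroxidase, fell by 0.61 ± 0.11 (adjusted p = 0.0266), and both calls were lost without any one GNE-140 array. GPCPD1, NRIP1 and IRF2, which encode a choline-releasing phosphodiesterase, a nuclear receptor corepressor and an interferon regulatory factor, rose by 0.90, 0.73 and 0.70 and passed against both sets of controls. Against all 4 controls each of these calls was also lost after median centring and without any one GNE-140 array (adjusted p up to 0.136, 0.189 and 0.0999). RIGI, a sensor of viral RNA, was the 1 of 44 interferon-stimulated genes that rose (0.75 ± 0.13, adjusted p = 0.0167, up to 0.0972 without a GNE-140 array). Of that list 28 genes were lower and 16 higher, and without control replicate 4 there were 2 rises and 9 falls.

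How far genes of proliferation were lower under GNE-140 depended on the controls. Of 62 genes of the mitotic spindle 5 fell against all 4 controls, 0 against control replicate 4 alone and 45 against controls 1 to 3, where 6.09% of all genes fell. The median of the list was −0.62 against all controls, −0.03 against control replicate 4 and −0.80 against controls 1 to 3. For 49 genes of DNA replication the counts were 1, 0 and 23 and the medians −0.58, 0.07 and −0.81. Without control replicate 1 or 2, or any one GNE-140 array, the counts against the remaining controls were 0 for both lists, and without control replicate 3 they were 2. With each gene set to its mean over the controls, the mitotic list had a median of −0.64, −0.66 and −0.54 in the GNE-140 arrays, against 0.36, 0.38, −0.19 and −0.52 in controls 1 to 4. Control replicate 4 thus lay with the treated arrays in this respect, and control replicate 3 lay between. The level of proliferation genes moved with the comparison of every other gene against controls 1 to 3, and its part in those differences was not tested.

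Single genes showed the same order. MKI67, the proliferation marker, read 7.63, 7.68 and 7.61 under GNE-140, against 8.84, 8.84, 8.13 and 7.88 in controls, and did not pass (−0.78 ± 0.22, adjusted p = 0.11). The mitotic kinesins KIFC1, KIF15, KIF23 and KIF18A and the spindle protein DLGAP5 fell by 0.98, 0.95, 0.80, 0.70 and 0.76, with adjusted p of 0.348 to 0.585 against control replicate 4. TK1, the thymidine kinase of S phase, fell by 1.53 ± 0.31 (adjusted p = 0.041), at 5.04, 4.81 and 5.05, against 7.09, 7.19, 5.98 and 5.72. The call was lost without control replicate 1 or 2 or any one GNE-140 array (adjusted p up to 0.192). The histone gene H2BC14 had the greatest difference of any named here, at 3.92, 3.78 and 3.74, against 7.97, 8.07, 6.08 and 5.68, and fell by 3.13 ± 0.50 (adjusted p = 0.0129), but it did not pass against control replicate 4 (−1.87 ± 0.60, adjusted p = 0.276) or without any one GNE-140 array (up to 0.0828). H2AC21, another histone gene, read 5.45, 5.71 and 5.66, against 7.83, 7.99, 7.24 and 7.16, and did hold, with −1.55 ± 0.25 against control replicate 4 (adjusted p = 0.0395). H2AC21 is not in the list of replication-dependent histones, of which 1 of 11 fell, H2BC14, while 5 were higher and 6 lower, with a median of −0.27. Histone genes are alike in sequence, so signal from other copies cannot be told apart.

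**Figure D5:**
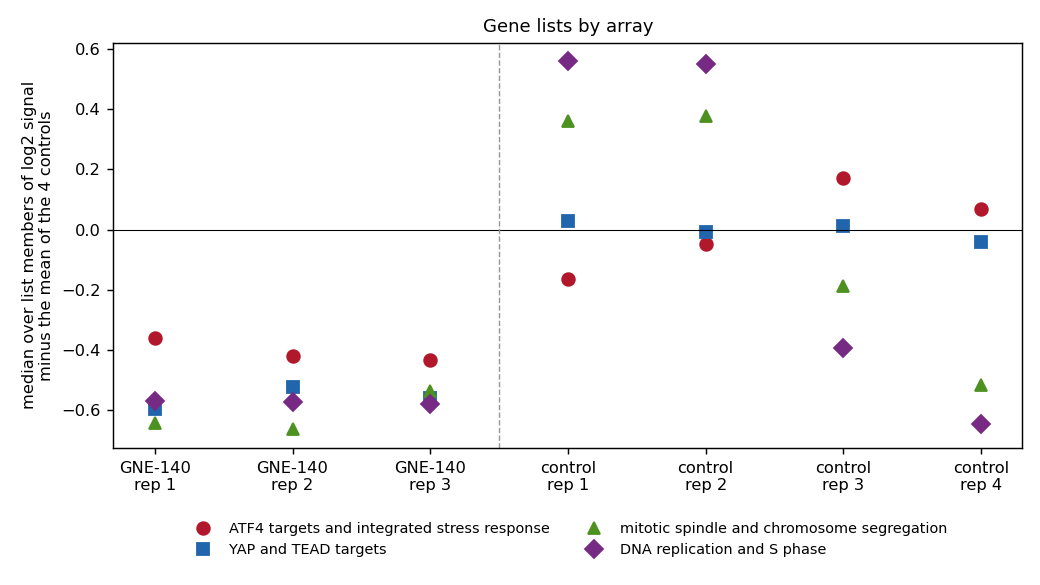
Median over the members of 4 gene lists of log2 signal minus the mean of the 4 controls, in each array. The mitotic and DNA replication lists split the controls, with replicates 1 and 2 high and replicate 4 level with the GNE-140 arrays, while the YAP and TEAD list lies at −0.60 to −0.52 in the GNE-140 arrays, against −0.04 to 0.03 in the controls, a median that does not show the splits of CCN1, CCN2 and ANKRD1.

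No member passed among 19 genes of cholesterol synthesis, 27 of mTORC1 and the lysosome, 15 CDK inhibitors and G1 cyclins, 22 ABC, SLCO and xenobiotic genes or 13 metallothioneins and metal response genes. Without control replicate 4 the cholesterol list had 2 falls, the mTORC1 list 2 rises and 3 falls, the CDK inhibitor list 1 rise and 5 falls and the metallothionein list 3 falls. Of 34 cytosolic ribosomal protein genes 1 fell, RPS27 (−0.68 ± 0.13, adjusted p = 0.0357), and of 19 genes of fatty acid synthesis and storage 1 fell, SREBF1, the sterol response factor (−0.82 ± 0.17, adjusted p = 0.0451). GABARAPL1, an ATG8 protein, was the 1 of 21 autophagy genes that rose (0.80 ± 0.15, adjusted p = 0.0308). Each of these single calls was lost without any one GNE-140 array.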

How the data were processed

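Total RNA of 12 samples was hybridised to Affymetrix HuGene 2.1 ST arrays. The authors made log2 signals from the scans in Affymetrix Expression Console, and these deposited values were used unchanged and unfiltered. That tool's version is not given in the sources used here, nor are its settings. The number of arrays limits the precision. Of 53617 features 23866 carry 1 gene symbol in the platform annotation, 1852 several and 27899 none, and a gene's brightest feature stood for it.

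The fit was limma 3.58.1 (R 4.3.3, lmFit and eBayes) over all 12 arrays in 4 groups, with Benjamini-Hochberg adjustment over all features. A fit with control replicate 4 as a group of its own gave the held changes. Errors beside differences are moderated SEs. The scripts were tested on simulated data.

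Named are up to 20 held rises and falls with a mean log2 signal of at least 3.5, every gene of the LDH list, and up to 6 members of each other list by adjusted p, with others chosen after their values were seen (EDN1, STC1, GPCPD1, NRIP1, IRF2, VIPR1 and IGFBP4 among them). The members, 47 gene lists and 5 added ones were chosen with earlier results of these data known. Alternatives covered the arrays fitted, limma-trend, array weights, quantile normalization, median centring, dim or unnamed features left out, fold limits, the methods' t-test, a replicate block, each array left out and, chosen after seeing the data, each other control as the lone one.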

Additional observations from a re-analysis of the deposited data

Results flagged for a closer look

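In 7 of 128 genes checked, 1 control array lay far from the other 3, whose own spread was small. Chance alone flags about 1 in 20 such groups. LDHC was at 2.30 in control replicate 2, against 1.32 to 1.36 in the other controls. SLC2A3 was at 4.20 in control replicate 4, against 4.72 to 4.80. PDK4 was at 2.88 in control replicate 2, against 3.06 to 3.07. FOSL1 was at 8.63 in control replicate 3, against 8.87 to 8.91. KIF18A was at 6.86 in control replicate 4, against 7.29 to 7.35. RPS27 was at 9.46 in control replicate 3, against 9.70 in the other 3. NRIP1 was at 5.53 in control replicate 4, against 5.95 to 6.03. Control replicate 4 accounts for SLC2A3, KIF18A and NRIP1.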

How the results depend on the processing

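The main counts were 74 higher and 170 lower features against all controls, and 18 and 40 held ones. Fitting only the 7 arrays gave 38 and 89, and 0 and 0 held, with 45 and 117 at an unadjusted p under 0.05 in both contrasts. Array weights, which were 0.28 for control replicate 4 and 1.80 to 2.15 for the GNE-140 arrays, gave 368 and 536, and 0 and 0 held (30 and 76 unadjusted). Leaving out dim features gave 66 held falls. Adjusting over named features only gave 44 and 97. A 1.5-fold limit gave 206 and 424, with 35 held rises, and no fold limit 222 and 452, with 46. The methods' t-test gave 8 and 14 after Benjamini-Hochberg and 151 and 327 at an unadjusted p under 0.05. With replicate numbers as a block the counts were 529 and 667, since the block removes control replicate 4, the only array with its number, and held changes could not be fitted. Arrays of the same number did not deviate together over all features (correlations of −0.00, −0.04 and −0.05). With 3 arrays in a group and many features near background, this cannot decide whether the numbers pair them. Control replicate 4 alone gave 53 falls, and controls 1 to 3 alone gave 534 and 689. With 1 array left out in turn, the counts ran from 35 to 534 higher and from 79 to 689 lower, and from 3 to 29 and 7 to 55 held. With control replicate 1 as the lone control in place of replicate 4, 33 rises held.

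Limma-trend, quantile normalization and median centring kept each of these counts within 1.5 times its main value. Of 2295 pairs of a named gene and an alternative, 1792 kept the call or its absence, 451 lost the call, 52 gained it and 0 reversed a call. A gene that passed in neither fit counts as kept even where its sign changed. SLC16A7, for example, differed by −0.58 against all 4 controls and by 0.20 against control replicate 4. Except where an alternative removes arrays or features, the cause of a change was not tested. The 3 treated arrays and the lone control limit what can be called, and signals near the array medians of 2.64 to 2.82 cannot be told from background.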

Other observations

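Of the 58 held features over 2-fold, 30 have no gene name in the platform annotation, 7 of them higher and 23 lower under GNE-140, and they are not described further.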
